A study of Mus musculus with 6 samples.

Results

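Laminins, nidogens and the heparan sulfate proteoglycans perlecan and agrin are the main parts of a basement membrane that are not collagen. The family was taken as the rows of the deposited expression table for Lama2, Lama4, Lama5, Lamb1, Lamb2, Lamc1, Nid1, Nid2, Hspg2 and Agrn. All 10 genes had a row, of 15711 genes in the table, and all 10 were high enough to be tested. The 6 libraries were bulk RNA sequencing of mouse tendon stem/progenitor cells (TSPCs), 3 from cells sorted by flow cytometry as Col1α1+Vldlr+ and 3 from cells sorted as Col1α1+Vldlr-. Both groups shared a Col1 alpha promoter Cre driver with a YFP reporter, a tendon origin and culture after the sort in DMEM with fetal bovine serum. The genotype label carries a different digit after Col1 alpha in each library, and these were read as 1 genotype because the cell label is Col1α1 in all 6. Age, sex and the number of animals are not given in the labels, nor is whether replicates came from separate animals or cultures, and a p-value here therefore covers the spread among these 6 libraries alone, which may be technical. The series set out to compare the expression profiles of Vldlr-positive and Vldlr-negative cells. The groups are called by their labels here, Vldlr+ and Vldlr-, because the level of Vldlr did not settle the labels. It was listed at 4.73, 3.97 and 3.70 RPKM in the libraries labelled Vldlr+, against 0.961, 0.959 and 0.467 RPKM in the libraries labelled Vldlr-. The 3 Vldlr- values were the only values of genes with a known length that did not come out as whole reads. They came out whole with 5 RPKM added, at 5.96, 5.96 and 5.47 RPKM, which is above the Vldlr+ values.

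A basement membrane is a thin sheet of matrix on which epithelial and endothelial cells sit and which wraps muscle fibres, Schwann cells and fat cells. Each laminin is a trimer of an alpha, a beta and a gamma chain. The short arms join laminins into a network, and the end of the alpha chain binds integrins and dystroglycan on the cell. Nidogens bind the laminin gamma1 chain and link it to the collagen IV network and to perlecan. In tendon, basement membranes lie around vessels and nerves and at the outer sheath, and cultured fibroblasts also make several of the components.

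Levels are given as RPKM, reads scaled by exon length and by library size. The length merges all annotated exons of a gene and can exceed that of the transcripts present. Orders, shares and ratios between genes below therefore depend on the annotation as well as on the reads. Reads worked out from these values summed to 17660241, 17691122 and 17719560 in the libraries labelled Vldlr+ and to 17287209, 17348846 and 17280540 in the libraries labelled Vldlr-. Between 329 reads for Lama5 and 22467 reads for Hspg2 stood behind a family member's value in a library. Replicate 1 labelled Vldlr+ stood apart from the other 2 libraries labelled Vldlr+, with a chi-square per gene of 13.8 and 11.9, against 2.27 between those 2 and 2.45 to 5.07 among the libraries labelled Vldlr-. Markers of the labelled cell type were present in every library: the 11 tendon fibroblast genes summed to 12145 to 13105 RPKM in the Vldlr+ group and 4218 to 4359 RPKM in the libraries labelled Vldlr-, led by Fmod, a collagen-binding proteoglycan, and Col1a1. By the test described below, 9 of the 11 were higher and 2 lower, where 29.7% and 26.1% of all genes were. Pdgfra was among the 2, at a mean of 26.1 RPKM in Vldlr+ against 40.6 RPKM in Vldlr- libraries.

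The family did not move as a block. Agrin, perlecan and nidogen-1 were higher in the libraries labelled Vldlr+, while nidogen-2, laminin gamma1, laminin alpha4 and laminin alpha5 were lower, and laminin alpha2, beta1 and beta2 did not pass the test. In numbers, 3 of 10 genes rose, 4 fell and 3 were not called by limma at a Benjamini-Hochberg adjusted p under 0.05 over all 12116 genes tested. Of all those genes 29.7% were higher and 26.1% lower by the same rule, and 55.9% passed in either direction, so most genes tested passed as well, and the 7 of 10 say nothing particular about the family. The median log2 fold change of the 10 genes was -0.11, on the log2(RPKM + 1) scale, and that of all genes tested was 0.02. For 8 of the 10 genes the groups did not overlap, against 62.9% of all genes tested. Against a 1.5-fold change on the log2(RPKM + 1) scale, 1 of the 10 genes passed, Agrn, where 9.43% of all genes did. The summed level of the family was 363 to 379 RPKM in the libraries labelled Vldlr+ and 365 to 406 RPKM in the libraries labelled Vldlr-, and these ranges overlapped. In bulk libraries, fewer cells of a type and less RNA per cell cannot be told apart, and that holds for each value below.

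**Figure D1:**
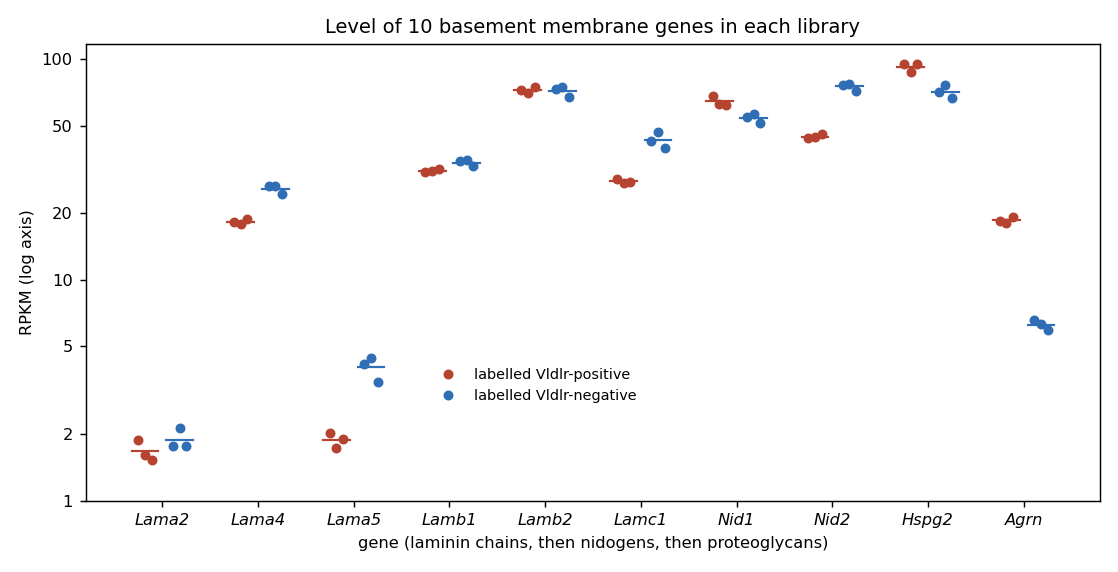
RPKM on a log axis for the 10 genes; each point is a library, lines are group means, and libraries labelled Vldlr+ stand left of libraries labelled Vldlr-. The groups are clearly apart for Agrn, Nid2, Lamc1, Lama4 and Lama5, while the points of Lama2 and Lamb2 overlap.

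The levels set the order of the chains. In the libraries labelled Vldlr+ Hspg2 was highest at a mean of 92.4 RPKM, followed by Lamb2, Nid1, Nid2, Lamb1, Lamc1, Agrn, Lama4, Lama5 and Lama2. Agrn and Lama4 overlapped in that order, as did Lama5 and Lama2, and every other pair of neighbours was apart. In the libraries labelled Vldlr- the order began with Nid2 at 75.2 RPKM, Lamb2 at 71.9 RPKM and Hspg2 at 71.1 RPKM. Nid2 overlapped with Lamb2 there, and Lamb2 with Hspg2. Nid1, Lamc1, Lamb1, Lama4, Agrn, Lama5 and Lama2 followed, each apart from the next. Nid2 differed the most in rank, at rank 4 in the Vldlr+ order, against rank 1 in the Vldlr- order, and Hspg2 was at rank 1 in the Vldlr+ order, against rank 3 in the Vldlr- order.

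Among the alpha chains, which carry the cell-binding end of a laminin, Lama4 was by far the most abundant. Lama4 (chromosome 10, 38965515 to 39110188, plus strand, GRCm38) encodes alpha4, a chain with a shortened arm found in vessel walls, fat and nerve. It was at 18.2, 17.96 and 18.8 RPKM in the libraries labelled Vldlr+, against 26.6, 26.7 and 24.4 RPKM in the libraries labelled Vldlr-. All 3 Vldlr+ values lay below all 3 Vldlr- values, with means of 18.3 ± 0.429 RPKM in Vldlr+ and 25.9 ± 1.29 RPKM in Vldlr- libraries (SD, n = 3 each, as for every value with ± here). Lama4 was 1.41-fold lower (log2 fold change -0.48, SE 0.05, limma adjusted p = 1.49e-04).

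Lama5 (chromosome 2, 180176373 to 180225859, minus strand) encodes alpha5, a long alpha chain of epithelial and mature vascular basement membranes. It was at 2.02, 1.74 and 1.90 RPKM in the libraries labelled Vldlr+, against 4.15, 4.43 and 3.47 RPKM in the libraries labelled Vldlr-. The groups did not overlap. Lama5 had the largest fall of the family as a ratio, 2.13-fold lower at 1.89 ± 0.142 RPKM in Vldlr+ against 4.02 ± 0.498 RPKM in Vldlr- libraries (log2 fold change -0.79, SE 0.09, limma adjusted p = 1.06e-04). On the log2(RPKM + 1) scale this fall is understated because the level is low, and with a pseudocount of 0.1 it was -1.04. Lama5 missed the 1.5-fold test on the log2(RPKM + 1) scale (limma adjusted p = 0.189). With a pseudocount of 0.1 it passed (limma adjusted p = 0.0160). At a pseudocount of 1 it also missed with median-ratio scaling (limma adjusted p = 0.202) and upper-quartile scaling (limma adjusted p = 0.105).

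Lama2 (chromosome 10, 26980036 to 27619758, minus strand) encodes alpha2, the chain of muscle and Schwann cell basement membranes whose loss causes congenital muscular dystrophy. It was at 1.89, 1.61 and 1.53 RPKM in the libraries labelled Vldlr+, against 1.76, 2.14 and 1.76 RPKM in the libraries labelled Vldlr-. The groups overlapped and the difference did not pass (log2 fold change -0.11, 95% interval -0.30 to 0.08, limma adjusted p = 0.292). Lama2 was the most variable member relative to its level in the Vldlr+ group, with a coefficient of variation of 11.4% where counting alone gives 4.69%. In the annotation, 631 of its 16338 exon bases are shared with Gm48084, on the opposite strand.

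The beta chains were the most abundant laminin transcripts by summed level, and neither of them passed the test. Lamb2 (chromosome 9, 108479736 to 108490530, plus strand) encodes beta2, known from the neuromuscular junction and the kidney glomerulus. It was at 72.2, 70.3 and 74.6 RPKM in the libraries labelled Vldlr+, against 73.5, 74.9 and 67.2 RPKM in the libraries labelled Vldlr-. The groups overlapped, and the log2 fold change was 0.01 with a 95% interval of -0.13 to 0.15 (limma adjusted p = 0.892). This sign is not fixed: it was -0.05 with upper-quartile scaling and -0.19 with scaling by total reads.

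Lamb1 (chromosome 12, 31265234 to 31329644, plus strand) encodes beta1, the widespread beta chain of developing and adult basement membranes. It was at 30.9, 31.0 and 31.8 RPKM in the libraries labelled Vldlr+, against 34.4, 34.9 and 32.7 RPKM in the libraries labelled Vldlr-. The groups did not overlap, yet the difference missed the threshold (log2 fold change -0.12, 95% interval -0.23 to -0.0037, limma adjusted p = 0.0739).

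Lamc1 (chromosome 1, 153218922 to 153332786, minus strand) encodes gamma1, which is shared by most laminins and carries the binding site for nidogens. It was at 28.5, 27.4 and 27.9 RPKM in the libraries labelled Vldlr+, against 42.4, 46.8 and 39.6 RPKM in the libraries labelled Vldlr-. The libraries labelled Vldlr+ lay close together and well below the libraries labelled Vldlr-, at 27.9 ± 0.568 RPKM in Vldlr+ against 42.9 ± 3.65 RPKM in Vldlr- libraries. Lamc1 was 1.54-fold lower (log2 fold change -0.60, SE 0.07, limma adjusted p = 1.32e-04), while beta1 and beta2, the chains it pairs with, did not pass.

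The genes whose pattern over the 6 libraries lay nearest to that of Lamc1, by the root mean square distance between centred log2(RPKM + 1) profiles, were Egfr (0.0272), Plxna1 (0.0327), Disp1 (0.0407), Pdgfra (0.0417) and Cyth3 (0.0447), among 7031 genes with a mean of at least 5 RPKM. Egfr and Pdgfra encode growth factor receptors and Plxna1 a semaphorin receptor. Pdgfra is also among the tendon fibroblast genes read above. Within the family Lama4 ranked 49 and Nid2 ranked 77 in the same order, while Lamb1 and Lamb2 ranked 1579 and 2570. This distance depends largely on the difference between the groups. The 5 nearest genes had log2 fold changes from -0.65 to -0.57, against -0.60 for Lamc1, so the ranks largely restate the fold changes.

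The 2 nidogens, which can stand in for each other in laminin binding, moved in opposite directions. Nid1 (chromosome 13, 13437551 to 13512269, plus strand) encodes nidogen-1, the main linker between the laminin and collagen IV networks. It was at 67.9, 62.7 and 62.2 RPKM in the libraries labelled Vldlr+, against 54.8, 56.2 and 51.3 RPKM in the libraries labelled Vldlr-. The groups did not overlap, and Nid1 was 1.19-fold higher at 64.3 ± 3.14 RPKM in Vldlr+ against 54.1 ± 2.48 RPKM in Vldlr- libraries (log2 fold change 0.24, SE 0.06, limma adjusted p = 0.00958). With scaling by total reads the call was lost (log2 fold change 0.05, limma adjusted p = 0.533, within a range of 0.00497 to 0.533 over the alternatives).

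Nid2 (chromosome 14, 19751265 to 19811787, plus strand) encodes nidogen-2, the second member of the family. It was at 43.8, 44.3 and 45.6 RPKM in the libraries labelled Vldlr+, against 76.3, 77.3 and 72.0 RPKM in the libraries labelled Vldlr-. Nid2 was 1.69-fold lower at 44.6 ± 0.968 RPKM in Vldlr+ against 75.2 ± 2.83 RPKM in Vldlr- libraries (log2 fold change -0.74, SE 0.05, limma adjusted p = 8.22e-06). It missed the 1.5-fold test (limma adjusted p = 0.0901). Of its 5174 exon bases, 437 overlap exons of Rtraf on the opposite strand, and 143 of the 6943 exon bases of Nid1 overlap Gm48682, also on the opposite strand. Whether counting used strand is not given in the sources used here, so reads in these stretches cannot be told apart.

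Both proteoglycans were higher in the libraries labelled Vldlr+. Perlecan and agrin are large core proteins that carry heparan sulfate chains and bind laminins and growth factors. Agrn (chromosome 4, 156165290 to 156197488, minus strand) encodes agrin, which clusters acetylcholine receptors at the neuromuscular junction and links laminin to dystroglycan. It was at 18.5, 18.03 and 19.2 RPKM in the libraries labelled Vldlr+, against 6.56, 6.29 and 5.90 RPKM in the libraries labelled Vldlr-. The groups were far apart, and Agrn was 2.97-fold higher at 18.6 ± 0.586 RPKM in Vldlr+ against 6.25 ± 0.331 RPKM in Vldlr- libraries (log2 fold change 1.43, SE 0.06, limma adjusted p = 2.52e-07). This was the largest change of the 10 genes on the log2 scale, and 1.57% of all genes tested had a log2 fold change at least as high. Agrn also passed the test against a 1.5-fold change (limma adjusted p = 6.75e-06).

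Hspg2 (chromosome 4, 137468769 to 137570630, plus strand) encodes perlecan, a basement membrane proteoglycan that is also found around cartilage and tendon cells. It was at 95.1, 87.5 and 94.6 RPKM in the libraries labelled Vldlr+, against 70.9, 76.1 and 66.4 RPKM in the libraries labelled Vldlr-. All Vldlr+ values lay above all Vldlr- values, and Hspg2 was 1.299-fold higher at 92.4 ± 4.28 RPKM in Vldlr+ against 71.1 ± 4.82 RPKM in Vldlr- libraries (log2 fold change 0.37, SE 0.07, limma adjusted p = 0.00199). With scaling by total reads it fell just outside the threshold (log2 fold change 0.17, limma adjusted p = 0.0504, within a range of 5.75e-04 to 0.0504 over the alternatives).

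**Figure D2:**
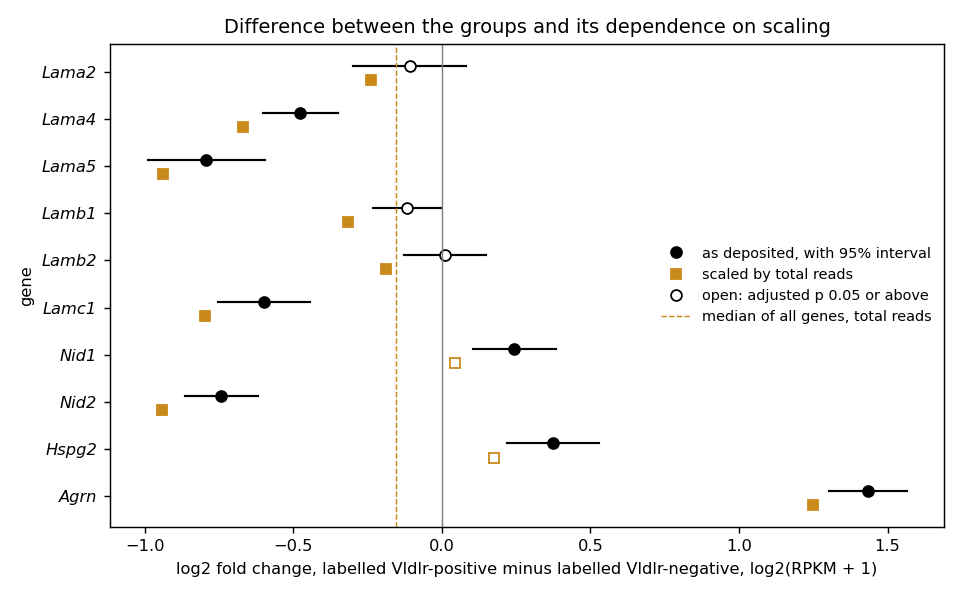
Log2 fold change of each gene on the log2(RPKM + 1) scale as deposited, with its 95% interval (circles), and after scaling by total reads (squares); open symbols did not pass the limma test. Agrn stands far to the right under both scalings, while Nid1 and Hspg2 are called as deposited and not after scaling by total reads.

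The scaling between libraries decides the smaller differences. The deposited RPKM contain composition factors, relative to their geometric mean, of 0.928 to 0.935 in the libraries labelled Vldlr+ and 1.07 in the libraries labelled Vldlr-. With libraries scaled by total reads alone, the median shift in log2 fold change over all genes was -0.17, and 15.4% of all genes were called higher and 45.6% lower. Under that scaling 1 of the 10 genes was higher, Agrn at a log2 fold change of 1.25, and 7 were lower, with Lama2 (-0.24), Lamb1 (-0.31) and Lamb2 (-0.19) joining the 4. Lamb1 was also called lower with upper-quartile scaling (-0.18). Relative to the median of all genes under total-read scaling, Nid1 was at 0.20 and Hspg2 at 0.33, close to the 0.23 and 0.36 relative to the median as deposited. On the same footing Lamb1 was at -0.16, Lama2 at -0.08 and Lamb2 at -0.04.

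Shares within a library do not depend on this scaling. Each is a chain's percentage of the summed RPKM of its kind, or the ratio of a chain sum to Lamc1, and 9 were compared over libraries by permutation (exact, two-sided), where 0.1 is the smallest p that 3 against 3 allows. For 8 of the 9 the groups did not overlap (exact permutation p = 0.1, and 0.1125 adjusted over the 9), so none can pass a threshold of 0.05 in this design. Among all single genes tested, the groups did not overlap for 62.9%. The 9 are not independent, because the alpha shares have a denominator in common, and that of Lama4 is among the 8 only with Lama3 included there.

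In percentage points the nidogen mixture differed the most of the shares compared, by 17.2. Nid1 made up 60.8%, 58.6% and 57.7% of both nidogens in the libraries labelled Vldlr+, against 41.8%, 42.1% and 41.6% in the libraries labelled Vldlr-. Nidogen-1 was thus the more abundant of the pair in every Vldlr+ library and the less abundant in every Vldlr- one. Hspg2 made up 83.7%, 82.9% and 83.1% of the 2 proteoglycans in the libraries labelled Vldlr+, against 91.5%, 92.4% and 91.8% in the libraries labelled Vldlr-, so agrin had a larger share in each Vldlr+ library.

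Among 5 alpha chains measured, Lama4 took 82.6% ± 1.37 in the Vldlr+ group and 78.3% ± 1.26 in the libraries labelled Vldlr-. Lama5 took 8.51% ± 0.466 in Vldlr+ and 12.1% ± 0.767 in Vldlr- libraries, and Lama2 took 7.57% ± 0.823 in Vldlr+ and 5.70% ± 0.483 in Vldlr- libraries. Lama3, a chain of epithelial anchoring laminins, took 0.793% ± 0.122 in the Vldlr+ group and 3.56% ± 0.274 in the libraries labelled Vldlr-. The alpha shares are linked, because a smaller share of a chain leaves larger shares to the others. Lama4 and Lama2 had larger shares in the Vldlr+ group, although the level of Lama4 was lower there and that of Lama2 did not pass the test. The larger share of Lama4 rested in part on Lama3 in the denominator. With only the listed chains there, the difference for Lama4 was 2.24 percentage points, against 4.32, and the groups overlapped. Lamb1 was 30.1% ± 0.399 of the beta chains in the Vldlr+ group and 32.0% ± 0.566 in the libraries labelled Vldlr-, the rest being almost all Lamb2.

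The balance between chain kinds was also read within libraries. The summed beta chains stood at 3.61, 3.699 and 3.82 times the level of Lamc1 in the libraries labelled Vldlr+, against 2.55, 2.35 and 2.53 times in the libraries labelled Vldlr-. The groups did not overlap, with means of 3.71 ± 0.105 in Vldlr+ and 2.48 ± 0.109 in Vldlr- libraries. The summed alpha chains stood at 0.794 ± 0.0129 of Lamc1 in the Vldlr+ group and 0.773 ± 0.0282 in the libraries labelled Vldlr-, where the groups overlapped (difference 0.0219, exact permutation p = 0.4).

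**Figure D3:**
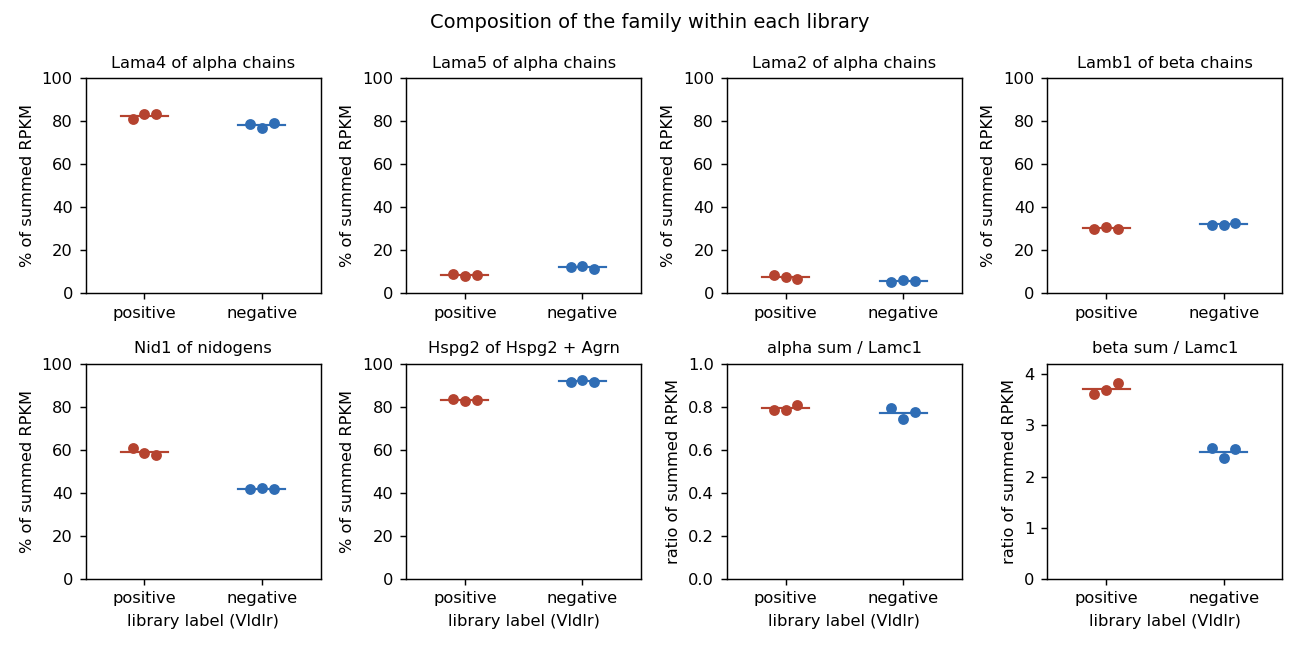
Percentage of summed RPKM, or ratio of summed RPKM to Lamc1, in each library, with libraries labelled Vldlr+ left of libraries labelled Vldlr- and lines at group means. The share of Nid1 and the ratio of beta chains to Lamc1 lie higher in the libraries labelled Vldlr+, the share of Hspg2 lies lower, and the ratio of alpha chains to Lamc1 overlaps.

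The stretch around the transcription start is shown for the 2 proteoglycan genes, which rose together, and for Lama5, which fell. Of the 10 genes, 7 (all but Lama4, Lamc1 and Nid2) have an entry in the RefSeq promoter table (build GRCm38.p6), which gives 250 bases before and 50 after a start. Agrn has 2 entries, and the one at the start of the full-length annotated gene is printed. The sequences read 5′ to 3′ on the gene's strand, and capitals mark GGGCGG or its reverse complement CCGCCC, the core of the GC box bound by Sp factors, with overlapping matches each counted.
Agrn, chr4:156197439-156197738, minus strand: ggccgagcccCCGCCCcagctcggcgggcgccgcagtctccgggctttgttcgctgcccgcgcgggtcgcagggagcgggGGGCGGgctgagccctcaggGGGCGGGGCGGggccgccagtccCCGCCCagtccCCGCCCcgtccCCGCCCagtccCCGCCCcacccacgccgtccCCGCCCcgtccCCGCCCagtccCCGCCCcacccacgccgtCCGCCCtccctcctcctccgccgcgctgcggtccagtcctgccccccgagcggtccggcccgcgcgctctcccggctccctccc
Hspg2, chr4:137468553-137468852, plus strand: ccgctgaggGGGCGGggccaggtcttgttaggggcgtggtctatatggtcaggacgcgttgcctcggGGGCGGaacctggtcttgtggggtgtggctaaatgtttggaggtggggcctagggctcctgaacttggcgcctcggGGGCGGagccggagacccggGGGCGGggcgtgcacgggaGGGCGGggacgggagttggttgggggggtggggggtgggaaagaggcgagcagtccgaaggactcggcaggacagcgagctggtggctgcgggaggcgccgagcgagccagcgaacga
Lama5, chr2:180225810-180226109, minus strand: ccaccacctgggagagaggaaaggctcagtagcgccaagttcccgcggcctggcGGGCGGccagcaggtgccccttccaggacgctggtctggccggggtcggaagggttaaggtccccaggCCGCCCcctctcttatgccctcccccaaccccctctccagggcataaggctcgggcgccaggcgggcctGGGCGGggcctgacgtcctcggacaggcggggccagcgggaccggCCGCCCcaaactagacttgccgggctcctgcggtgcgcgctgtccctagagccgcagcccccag
The window of Agrn held 12 matches, that of Hspg2 5 and that of Lama5 4. At least 1 match was present in 35.7% of the 32851 promoters in the table and at least 4 in 5.49%. The window was 83.3% G or C for Agrn, 70.3% for Hspg2 and 72.7% for Lama5, against a median of 52.7% over all promoters. Since the motif holds only G and C, base composition may account for the matches, which was not tested. The other 4 genes with an entry, Nid1, Lama2, Lamb1 and Lamb2, held 0 to 2 matches, and no relation to direction was tested. None of the 3 windows held TATAAA on the gene's strand, searched there alone, which was in 8.32% of all promoters.

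Related genes were read as lists, each beside the background of 55.9% of all genes called. Of the 4 other laminin and netrin chains in the table that were analysed, 2 were high enough to test. Ntn4, a netrin that binds laminin gamma1, was 1.87-fold higher at 21.4 ± 0.888 RPKM in Vldlr+ against 11.4 ± 0.340 RPKM in Vldlr- libraries (limma adjusted p = 3.77e-06). Lama3 was 6.70-fold lower at 0.176 ± 0.0308 RPKM in Vldlr+ against 1.18 ± 0.160 RPKM in Vldlr- libraries and reached the filter only in the libraries labelled Vldlr-, where it is high, so its call is given no weight. Lama1 and Lamb3 were below 1 RPKM in every library.

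Of 10 basement membrane collagens 5 were tested, of which 4 rose and 1 fell, with a median log2 fold change of 0.78. Col15a1, a collagen that bridges basement membranes to the fibrils outside them, was at 22.003 ± 0.914 RPKM in the Vldlr+ group and 2.37 ± 0.0600 RPKM in the libraries labelled Vldlr-. Col18a1, a related heparan sulfate collagen, was 2.81-fold higher at 60.3 ± 2.63 RPKM in Vldlr+ against 21.5 ± 1.36 RPKM in Vldlr- libraries. Col4a5, a minor collagen IV chain, was 4.91-fold lower at 2.90 ± 0.180 RPKM in Vldlr+ against 14.2 ± 0.923 RPKM in Vldlr- libraries. Without the filter on low values 3 collagens of this list were lower.

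Among receptors for laminin and agrin, 12 of 14 were tested, 8 rose, 2 fell and 2 did not pass, with a median log2 fold change of 0.43. Itga7, the laminin-binding integrin subunit of muscle, was 2.42-fold higher at 8.53 ± 0.564 RPKM in Vldlr+ against 3.52 ± 0.312 RPKM in Vldlr- libraries. The syndecan genes Sdc4 and Sdc1, which encode cell surface heparan sulfate proteoglycans, were 1.69-fold and 1.96-fold higher. The 2 that fell were Sdc2, the most abundant syndecan gene of the list, at 249 ± 7.94 RPKM in Vldlr+ against 302 ± 4.26 RPKM in Vldlr- libraries, and Lrp4, an agrin receptor of muscle, 2.38-fold lower at 1.25 ± 0.0894 RPKM in Vldlr+ against 2.98 ± 0.251 RPKM in Vldlr- libraries. With the filter at 5 RPKM, 5 rose and 1 fell. With scaling by total reads, 4 of these receptors fell.

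The dystroglycan complex and the enzymes that glycosylate it for laminin binding had a median near that of all genes: of 15 genes tested 4 rose, 2 fell and 9 missed the threshold, with a median log2 fold change of 0.06. Pomgnt1, a glycosyltransferase of this route, was 1.39-fold higher, while Sgcd and Dmd, which encode delta-sarcoglycan and dystrophin, were 1.45-fold and 1.72-fold lower at low levels. With the filter at 5 RPKM 0 fell. The count of 4 rested on single libraries and on the scaling. It was 1 with upper-quartile or total-read scaling, and 1 without replicate 3 labelled Vldlr+, replicate 1 labelled Vldlr- or replicate 2 labelled Vldlr-, and 2 without replicate 2 labelled Vldlr+ or replicate 3 labelled Vldlr-, while 5 genes fell without replicate 1 labelled Vldlr+.

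Other proteins that sit in or bind to basement membranes included several large differences: of 9 genes tested 5 rose, 3 fell and 1 missed the threshold, with a median log2 fold change of 0.49. The number that fell depended on the filter: it was 6 without one and 0 at 5 RPKM, and 1 of the 3 had reached the filter in the libraries labelled Vldlr- alone. The fibulin genes Fbln2 and Fbln1, whose products bind laminins and nidogens, were 3.96-fold and 2.94-fold higher, Fbln2 at 242 ± 3.11 RPKM in Vldlr+ against 61.1 ± 1.197 RPKM in Vldlr- libraries. Npnt, which encodes an integrin ligand of basement membranes, was 3.33-fold lower at 1.504 ± 0.248 RPKM in Vldlr+ against 5.01 ± 0.415 RPKM in Vldlr- libraries.

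For the enzymes that build the heparan sulfate chains carried by perlecan and agrin, of 15 genes tested 5 rose, 1 fell and 9 missed the threshold, with a median log2 fold change of 0.12. Ext1 and Ext2, the subunits of the heparan sulfate polymerase, were 1.45-fold and 1.29-fold higher, Ext1 at 30.1 ± 0.911 RPKM in Vldlr+ against 20.7 ± 0.220 RPKM in Vldlr- libraries. Xylt1, which starts the sugar linkage, was 1.82-fold lower at 1.07 ± 0.0624 RPKM in Vldlr+ against 1.95 ± 0.0618 RPKM in Vldlr- libraries. The number that fell was 0 with the filter at 5 RPKM, 2 without replicate 1 labelled Vldlr+, 3 with upper-quartile scaling and 5 with total-read scaling.

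**Figure D4:**
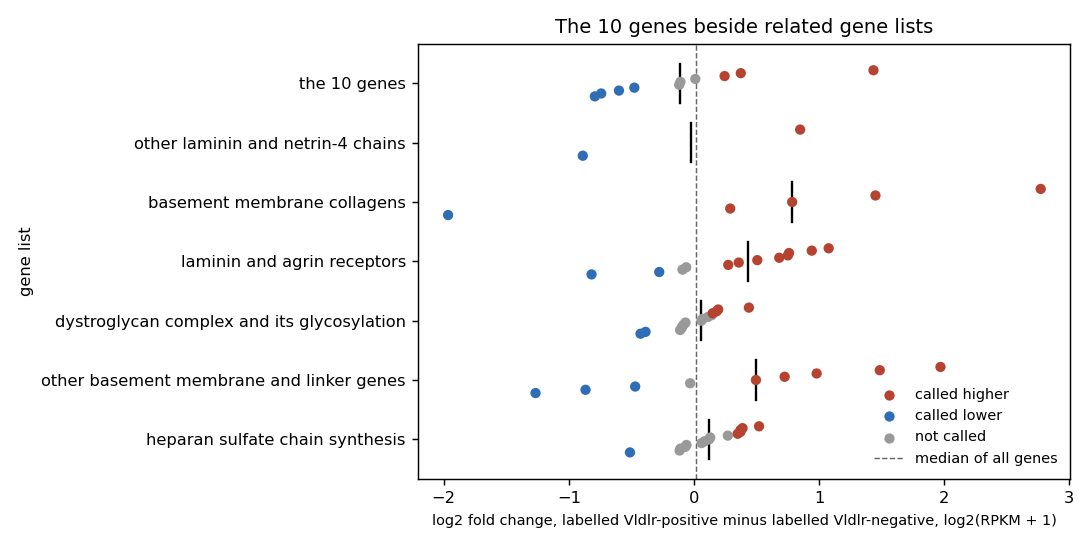
Log2 fold change on the log2(RPKM + 1) scale of every tested gene in the family and in 6 related lists, coloured by its limma call, with list medians as black lines and the median of all genes dashed. The 10 genes spread to both sides of zero, with Agrn alone beyond 1, while the collagens and linker genes reach further both ways.

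Markers of other cell types that make basement membranes differed between the same libraries, and their part in the differences above was not tested. The 11 endothelial markers in the table summed to 20.2 to 21.8 RPKM in the Vldlr+ group and 4.87 to 6.04 RPKM in the libraries labelled Vldlr-. Cdh5, the cadherin of endothelial junctions, was at 5.07 ± 0.195 RPKM in the libraries labelled Vldlr+ and was listed at 0 in all 3 libraries labelled Vldlr-, and Emcn was at 4.201 ± 0.277 RPKM in Vldlr+ and 0.0165 ± 0.00573 RPKM in Vldlr- libraries. Tie1 also had 0 reads in all 3 libraries labelled Vldlr-. Of 8 endothelial markers tested, 6 reached the filter in the libraries labelled Vldlr+ alone and 1 in those labelled Vldlr- alone, which fixes their direction, so calls are not counted.

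The 9 Schwann cell markers summed to 129 to 141 RPKM in the Vldlr+ group and 20.8 to 22.7 RPKM in the libraries labelled Vldlr-, and 6 of the 8 tested reached the filter in the libraries labelled Vldlr+ alone. Ngfr, also a progenitor marker, was at 72.2 ± 2.41 RPKM in Vldlr+ and 4.98 ± 0.594 RPKM in Vldlr- libraries, whereas S100b was lower at 4.504 ± 0.819 RPKM in Vldlr+ against 15.4 ± 0.307 RPKM in Vldlr- libraries. The 9 mural and smooth muscle markers summed to 181 to 183 RPKM in Vldlr+ and 94.1 to 102 RPKM in Vldlr- libraries, mostly Pdgfrb, which fibroblasts also express, at 150.2 ± 1.31 RPKM in Vldlr+ and 76.8 ± 2.79 RPKM in Vldlr- libraries, followed by Mcam at 15.0 ± 0.431 RPKM in Vldlr+ and 2.43 ± 0.0646 RPKM in Vldlr- libraries. The mural markers did not all go this way. Of 6 tested, 1 reached the filter in the libraries labelled Vldlr+ alone and 1 in those labelled Vldlr- alone. Among the 4 that reached it in both groups, 3 were called higher and 1 lower, where 55.9% of all genes were called. Without the filter on low values, 4 were higher and 5 lower.

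Macrophage and fat cell markers went the other way. The 12 immune markers summed to 25.9 to 33.2 RPKM in the Vldlr+ group and 573 to 696 RPKM in the libraries labelled Vldlr-, and 8 of the 10 tested reached the filter in the libraries labelled Vldlr- alone. Lyz2 was at 27.4 ± 3.09 RPKM in Vldlr+ and 429.8 ± 38.5 RPKM in Vldlr- libraries and Ctss was at 0.0739 ± 0.0924 RPKM in Vldlr+ and 35.9 ± 4.39 RPKM in Vldlr- libraries. Tyrobp, an adaptor of myeloid receptors, had 0 reads in all 3 libraries labelled Vldlr+. The 4 adipocyte markers in the table summed to 4.25 to 5.68 RPKM in Vldlr+ and 36.6 to 42.3 RPKM in Vldlr- libraries, with Adipoq at 2.07 ± 0.409 RPKM in Vldlr+ and 20.5 ± 1.15 RPKM in Vldlr- libraries and Fabp4 at 1.75 ± 0.293 RPKM in Vldlr+ and 8.94 ± 0.656 RPKM in Vldlr- libraries. Skeletal muscle markers were low in both groups, at 1.59 to 1.91 RPKM in Vldlr+ and 1.202 to 1.79 RPKM in Vldlr- libraries summed over 3 genes that included Acta1 and Mylpf, and 0 of them were tested. Of the 7 epithelial markers looked for, 0 had a row, so they were not analysed here.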

How the data were processed

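The authors deposited 1 table with a value per gene and library. The table names no unit, and RPKM was worked out from the values: multiplied by the merged exon length of the gene in GENCODE M21 (GRCm38, the assembly mm10 names), they were whole multiples of 1 step per library for 15690 of 15691 genes with a length, within 0.01 reads; the exception was Vldlr. The submitters' processing notes name mm10 as build and list bcl2fastq 1.8.4 and Cell Ranger without saying what each was used for. Which aligner and counter were run, and whether counting used strand, is not given in the sources used here. The 20 genes without a length, whose names had become dates, were kept in the RPKM tests.

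From the deposited RPKM, log2(RPKM + 1) was fitted with limma (version 3.58.1, R version 4.3.3, both its trend and its robust option on) for every gene that reached 1 RPKM in 3 or more libraries, with the group as the only term, Benjamini-Hochberg adjustment over all genes tested and a threshold of 0.05. This scale understates the change of genes at low levels. A fold is the ratio of 2 group means in RPKM, errors are SD, and limma's treat function gave the test against a 1.5-fold change. Within-library shares were compared by an exact permutation test (scipy 1.17.1), with Lamc1 alone as the denominator of the chain ratios; 1 share and 1 gene are not reported here. The fit was tested on simulated data in which few genes changed, as many up as down. Those data held no composition shift between the groups, so they do not bear on the choice of scaling.

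The 10 genes and all lists were chosen with earlier results of these data known. Named genes are all 10 members, Vldlr and Col1a1, the 5 nearest to Lamc1, up to 3 called genes with the lowest adjusted p per related list (where fewer than 2 passed, also the 2 most abundant) and the 2 most abundant per marker list; Tie1, Tyrobp, Sdc2, Lrp4 and the untested laminin chains were added after their values were seen. Alternatives were 3 scalings, a smaller pseudocount (0.1), dropping the filter or setting it at 5 RPKM, voom in limma on worked-out reads, a replicate block and leaving out each library.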

Additional observations from a re-analysis of the deposited data

How the results depend on the processing

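Leaving out any 1 library kept 3 of the 10 genes called higher and 4 called lower; over all genes it gave 2830 to 4103 higher and 2415 to 3754 lower. Median-ratio scaling, a pseudocount of 0.1, no filter, limma voom and the replicate block also gave 3 and 4, and upper-quartile scaling 3 and 5. Lama5 and Lama2 did not pass the filter at 5 RPKM, which left 3 lower, and over all genes 1800 lower. Scaling by total reads gave 1 higher and 7 lower, and over all genes 1875 higher and 5547 lower. The sign of Lamb2 turned with upper-quartile (-0.0491) and total-read scaling (-0.189), and ran from -0.0363 to 0.0406 when a library was left out, below 0 without replicate 3 labelled Vldlr+ or replicate 3 labelled Vldlr-. Genes of the family past a 1.5-fold change numbered 1 as deposited, 2 with upper-quartile scaling (with Nid2) or a pseudocount of 0.1 (with Lama5), 3 with total-read scaling or voom (with both), and 1 to 2 when a library was left out, 2 without replicate 3 labelled Vldlr-. The causes were not tested.

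Differences in shares moved with the units or denominators used. With worked-out reads in place of RPKM they were -2.45 percentage points for Lama3, -6.15 for Hspg2, 1.06 for the ratio of beta chains to Lamc1 and 0.0454 for that of alpha chains, against -2.76, -8.66, 1.23 and 0.0219. With only the listed chains in the denominator, Lama4 was at 2.24 percentage points, against 4.32, and the groups then overlapped for Lama4. The difference in the alpha ratio ran from 0.00660 to 0.0344 when a library was left out.

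Replicate numbers were not taken as pairs, and the correlations between libraries do not settle whether they are. The deviations of same-numbered libraries correlated at 0.30, -0.06 and 0.31 over genes. The values 0.30 and 0.31 were the highest of all pairings of a Vldlr+ with a Vldlr- library. Replicate 2 labelled Vldlr+ correlated best with replicate 3 labelled Vldlr-, at 0.26. With the replicate number as a block, 3738 genes were higher and 3315 lower, against 3602 and 3167 without it, and 3 and 4 of the family in both fits. Lama2 and Lama5 had the fewest reads of the family, 329 to 940 per library. Their spread exceeded that of counting alone in both groups. For Lama5 the coefficient of variation was 7.51% in Vldlr+ and 12.4% in Vldlr- libraries, where counting gives 5.30% and 3.43%.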
